A study of Mus musculus with 47 samples.

Results

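Neutrophils carry their oldest weapons in primary, or azurophil, granules, which are filled at the promyelocyte stage. The 5 genes described here encode proteins of that stage: Mpo (myeloperoxidase), the serine proteases Elane (neutrophil elastase), Prtn3 (proteinase 3) and Ctsg (cathepsin G), and Ms4a3, a membrane protein of granulocyte and monocyte progenitors. They were chosen by name and were 5 of 18193 genes with a probe set of their own on the array. Each had a single such probe set, so no gene had a choice between probe sets. Their levels across 47 leukaemic spleens, and how far they moved together, are given as log2 RMA values.

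Primary granule proteins are made in a short window of granulocyte development. Promyelocytes transcribe these genes strongly under C/EBPα, PU.1, RUNX1 and MYB and switch them off as cells pass to the myelocyte, where genes of the secondary granules such as Ltf and Camp come on. S100a8 and S100a9, the calprotectin subunits, stay on until the mature neutrophil. RNA of the primary granule genes therefore marks immature granulocytes, while their proteins persist in mature cells. In the mouse, the spleen can itself make granulocytes.

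The arrays held RNA from tumour-bearing spleen of 47 mice carrying an active Sleeping Beauty transposon, a mobile DNA element that can activate or disrupt genes where it lands. All carried the Cre transgene Tg(ACTB-cre)2Mrt, whose actin promoter is active in nearly all tissues, the Cre-activated transposase Gt(ROSA)26Sortm2(sb11)Njen, and a transposon array, either TgTn(sb-T2/Onc2)6070Njen in 26 mice or TgTn(sb-T2/Onc2)6113Njen in 21. Every tumour was labelled an undifferentiated myeloid leukaemia at the terminal stage, at ages of 32 to 97 (median 68, unit not given), and 26 were labelled as having a transposon insertion in Erg and 21 as having none. In line 6070, 17 mice had the insertion label and 9 did not, and in line 6113 these were 9 and 12. Spleens without leukaemia were not analysed here, so no level below is a change from a normal spleen. Arrays are called E (insertion label) or N (no insertion label) with a replicate number that follows the deposited order.

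The promoters of the 5 genes are shown because the genes share their stage of expression. Each line below gives the 250 bases before the RefSeq start in the build GRCm38.p6, read 5′ to 3′ on the gene's strand, and capitals mark the letters GAGGAA, the core of many PU.1 sites, where they occur in this reading.
Mpo, chr11:87793534-87793783, plus strand: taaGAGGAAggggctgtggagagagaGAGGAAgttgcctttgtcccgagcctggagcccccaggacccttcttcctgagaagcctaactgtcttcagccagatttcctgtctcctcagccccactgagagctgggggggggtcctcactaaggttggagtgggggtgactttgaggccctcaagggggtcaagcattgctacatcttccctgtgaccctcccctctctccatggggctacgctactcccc
Elane, chr10:79886062-79886311, plus strand: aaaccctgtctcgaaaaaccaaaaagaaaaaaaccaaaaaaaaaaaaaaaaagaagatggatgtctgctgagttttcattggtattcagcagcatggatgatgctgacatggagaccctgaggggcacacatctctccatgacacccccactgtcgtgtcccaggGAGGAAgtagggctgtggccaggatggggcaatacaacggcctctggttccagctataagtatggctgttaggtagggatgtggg
Prtn3, chr10:79879417-79879666, plus strand: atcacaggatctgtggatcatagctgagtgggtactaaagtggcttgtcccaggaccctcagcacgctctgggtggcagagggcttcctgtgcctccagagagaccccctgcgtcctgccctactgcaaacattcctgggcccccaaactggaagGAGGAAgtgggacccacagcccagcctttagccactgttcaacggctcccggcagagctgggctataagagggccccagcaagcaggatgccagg
Ctsg, chr14:56102575-56102824, minus strand: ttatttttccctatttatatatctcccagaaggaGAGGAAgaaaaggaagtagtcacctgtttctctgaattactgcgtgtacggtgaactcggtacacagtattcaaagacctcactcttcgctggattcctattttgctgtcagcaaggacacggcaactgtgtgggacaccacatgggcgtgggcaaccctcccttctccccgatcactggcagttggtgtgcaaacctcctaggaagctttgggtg
Ms4a3, chr19:11640852-11641101, minus strand: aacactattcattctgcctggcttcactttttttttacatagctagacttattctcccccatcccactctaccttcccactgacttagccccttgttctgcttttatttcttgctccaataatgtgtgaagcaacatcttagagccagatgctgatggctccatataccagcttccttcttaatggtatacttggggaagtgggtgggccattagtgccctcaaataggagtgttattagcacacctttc
GAGGAA was found, on either strand, in 4 of the 5 windows, 2 times in Mpo and 1 time each in Elane, Prtn3 and Ctsg, and not in Ms4a3. Among 32851 RefSeq promoters of this length, 23.3% held it. The MYB core AACNG was also found in 4 of 5, all but Ms4a3, and in 74.2% of all promoters. The C/EBP half-palindrome form TTNNGNAA was found in Ms4a3 alone (36.8% of promoters), and the RUNX core TGTGGT (14.0%) and TATAAA (12.4%) in Ctsg alone. Both matches in Ctsg are on the opposite strand, and that of TATAAA lies toward the end of the window far from the start. Elane and Prtn3 hold the similar letters tataag close to the start, which the search did not count. These are matches of letters and not tested sites.

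Across the series, most probe sets lay near a common floor: the lowest value was 4.78, the first quartile of all values was 5.08, and 55.4% of tested genes had a median at or below 5.5. The labelled sex matched the sex-chromosome transcripts on 23 arrays and did not on 24, so label groups below are the groups as labelled. Whether the Erg, line and age labels are tied to the right arrays could not be checked in the same way, and every label comparison below depends on it. The difference between 3′ and 5′ control probe sets, a measure of RNA integrity and labelling, ran from 0.65 to 2.96 with a median of 1.31, and array N19 had the highest value. In bulk tissue, fewer cells of a type and less RNA per cell cannot be told apart.

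Primary granule RNA was at or below log2 7 in most of these spleens and higher in a few. Of 47 arrays, 39 had none of the 5 genes above log2 7, 5 had 1, 2 had 3 and 1 had 4. Although all tumours carried a myeloid label, the genes that define the promyelocyte were thus not at high levels in most of them. Counted by gene and not by array, Mpo was above log2 7 in 6 arrays, Elane in 0, Prtn3 in 4, Ctsg in 4 and Ms4a3 in 1. Nearer the floor, at or below 5.5, were 20 arrays for Mpo, 38 for Elane, 18 for Prtn3, 25 for Ctsg and 28 for Ms4a3. Many arrays thus lay between these lines. Of all tested genes, 23.1% had at least 1 array above log2 7.

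Mpo, the enzyme that makes hypochlorous acid in the phagosome, ran from 5.24 through a median of 5.62 to 8.82 (SD 0.90, n = 47). It lay at or below 5.5 in 20 arrays, above 6 in 16 and above 7 in 6, which were E21 at 8.82, N19 at 8.64, E11 at 8.18, N2 at 7.72, E15 at 7.10 and N7 at 7.01. Below these the values ran down without a gap, the next being 6.88 in E23 and 6.76 in N16. The SD of Mpo was larger than that of 99.2% of tested genes, whose median SD was 0.104.

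Elane, whose protease degrades matrix and bacterial proteins, gave almost no signal. Its probe set ran from 5.34 through 5.43 to 5.92 (SD 0.11), never passed 6, and lay at or below 5.5 in 38 of 47 arrays. Its SD ranked at the 52.1 percentile of tested genes. The highest value was in E21, and the next were N2 at 5.75, N19 at 5.73 and E11 at 5.67, the arrays with the 4 highest Mpo values. A range of 0.58 log2 units this near the floor leaves little room for a ranking of the other arrays.

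Prtn3, the gene beside Elane and the protease recognised by many vasculitis autoantibodies, ran from 5.21 through 5.71 to 8.33 (SD 0.74). Above log2 7 were 4 arrays: E21 at 8.33, N19 at 8.07, E16 at 7.37 and N2 at 7.31. E16 stood apart in this group of genes, because Mpo was 5.59, Ctsg 5.49 and Ms4a3 5.51 there. That array had the highest value of all 47 for Lyz2, the lysozyme of monocytes and granulocytes (11.75). Csf1r, the macrophage growth factor receptor, was at 10.14 there, and Irf8, a regulator of monocytes and dendritic cells, at 7.82. Flt3, a receptor of progenitors, was at 10.10, and Vpreb1, a surrogate light chain of pre-B cells, at 9.74.

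Ctsg, a chymotrypsin-like protease, ran from 5.16 through 5.496 to 8.50 (SD 0.73). It passed log2 7 in N19 at 8.50, E21 at 8.06, E12 at 7.45 and N2 at 7.12. In E12, Mpo was 5.59, Prtn3 5.71 and S100a8 5.22, while Ms4a3 was 6.55 and Csf3r, the G-CSF receptor of neutrophils, 7.46. Mcpt8, a protease of basophils, was at 9.71 there and Prg2, the eosinophil major basic protein, at 7.38. Epx, the eosinophil peroxidase, was at 5.28.

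Ms4a3, a tetraspan-like membrane protein used as a lineage mark of granulocyte-monocyte progenitors, ran from 5.01 through 5.27 to 8.05 (SD 0.60). Only N19 passed log2 7. The next highest were N4 at 6.82, E15 at 6.69, E21 at 6.61 and E12 at 6.55. In N4 the other 4 genes were low, with Mpo at 5.62 and Ctsg at 5.81, and S100a8 was at 6.47.

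**Figure D1:**
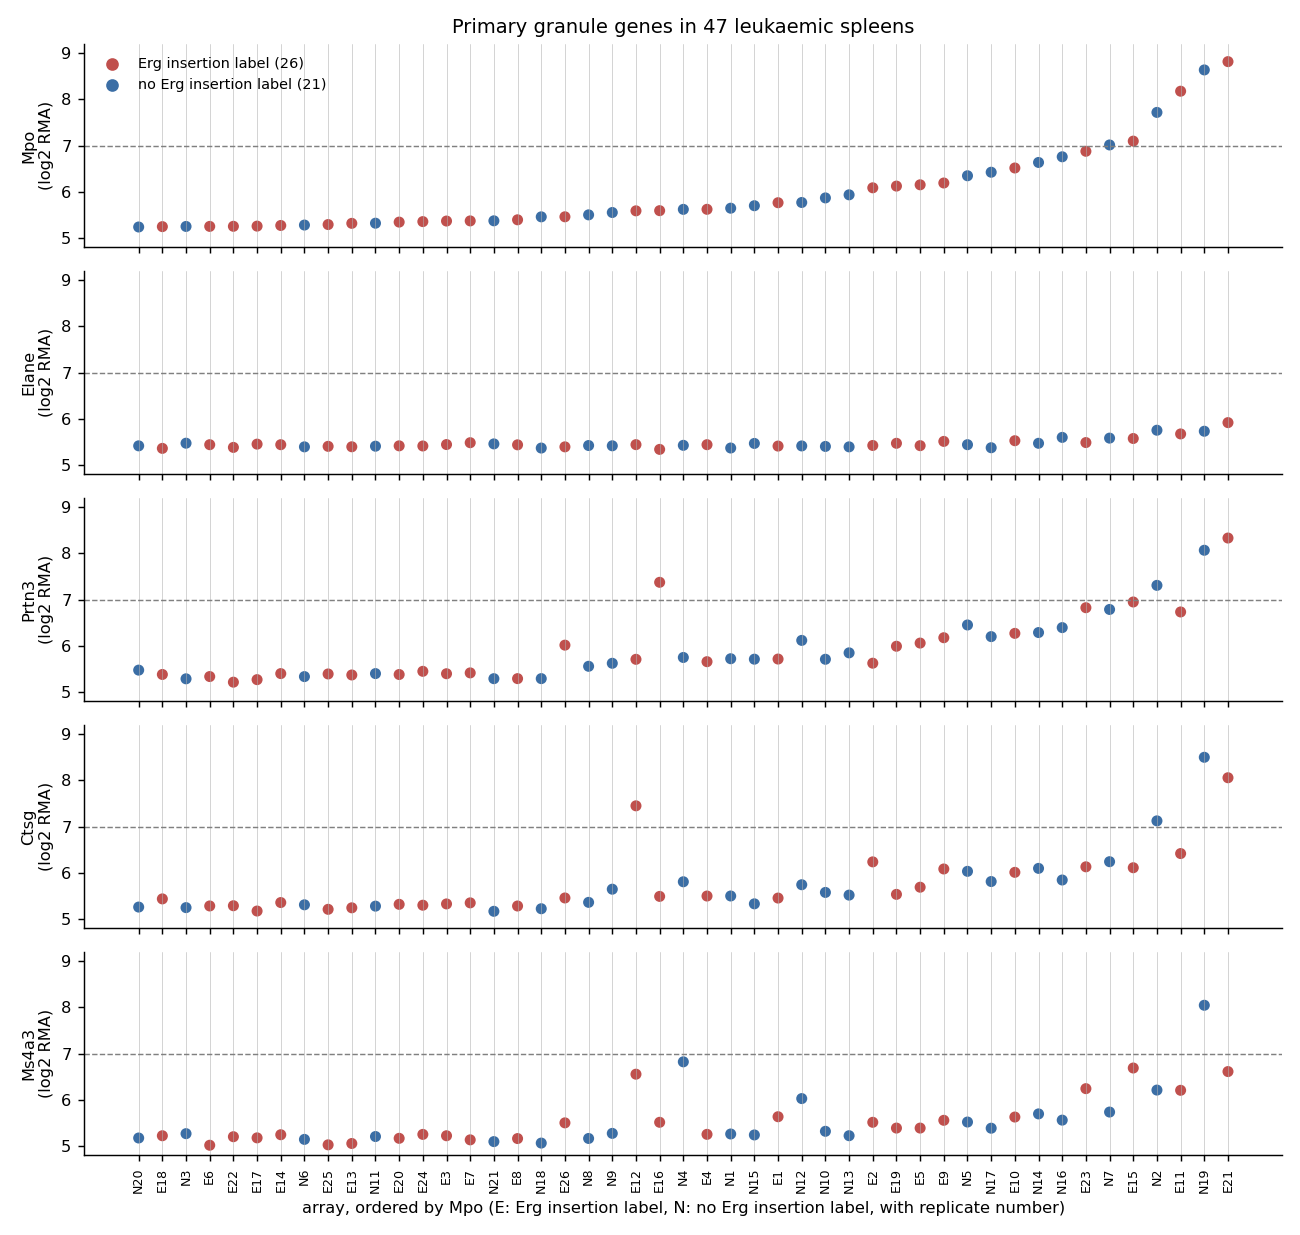
Log2 RMA level of each of the 5 genes (rows) in each of the 47 arrays (horizontal axis, ordered by Mpo; red, Erg insertion label, blue, no such label; dashed line, log2 7). High values gather at the right in E21, N19, E11 and N2, Elane stays between 5.34 and 5.92, and E16 (Prtn3), E12 (Ctsg, Ms4a3) and N4 (Ms4a3) rise away from Mpo.

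Counts of high arrays depended on the level used: 21 arrays had a member above log2 6 and 3 had one above log2 8, against 8 above log2 7. Genes of later granulocytes were counted at the same line. S100a8 was above log2 7 in 30 arrays, and in 23 of these no primary granule gene was. Ngp, a secondary granule protein, was above log2 7 in 17 arrays, Camp, the cathelicidin, in 16 and Ltf, lactoferrin, in 8. In all 6 arrays with Mpo above 7, S100a8 was above 7 too. S100a8 thus passed the line in spleens where no primary granule gene did. Mpo did not pass it without S100a8, but Ctsg did in E12, where Ctsg was at 7.45 and S100a8 at 5.22. Passing a common line also depends on the probe set, so these counts do not compare the RNA levels of different genes. Kit and Cd34, markers of early progenitors, stayed at or below 6.90 and 6.84, and Gfi1 and Cebpa, regulators of granulocyte genes, at or below 6.79 and 5.80, so these probe sets never passed log2 7.

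The 8 arrays with a high member were not alike in their other genes. E21, the highest for Mpo and Prtn3, had S100a8 at 11.71 and Ltf at 8.73 with the eosinophil gene Prg2 at 5.18, near its floor. N19 had S100a8 at 11.99 and Ltf at 8.68 but also Prg2 at 11.79, Epx (eosinophil peroxidase) at 11.30, Mcpt8 at 10.03 and Vpreb1, a surrogate light chain of pre-B cells, at 9.82. E11 had Csf1r at 10.66 and the T cell gene Cd3d at 8.53. N2 and N7 had Flt3 at 10.11 and 10.31 and Vpreb1 at 10.14 and 11.06. E15 had S100a8 at 11.18 and Prg2 at 7.48, but Epx at 5.83 and Mcpt8 at 5.20.

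The genes moved together over the 47 spleens. All 10 pairs had a positive Pearson's r, from 0.65 to 0.90 with a median of 0.79, and all 10 passed after adjustment over the 10 pairs, by r and by Spearman's rho (two-sided permutation tests, n = 47). For comparison, the median r of any tested gene with Mpo was -0.002, and the central 95% of genes lay between -0.51 and 0.45. Mpo and Prtn3 gave r 0.90 and rho 0.89, and Ctsg and Ms4a3 gave r 0.86 and rho 0.89, each with an adjusted permutation p of 1.11e-05 for r, from the smallest p that 100000 resamples can give. Mpo and Ctsg gave 0.85 and 0.87, Prtn3 and Ctsg 0.81 and 0.87, Prtn3 and Ms4a3 0.76 and 0.84, and Mpo and Ms4a3 0.75 and 0.79. Elane was looser in rank than in level: its r with Mpo was 0.88 and its rho 0.53, with Ctsg 0.78 and 0.49, with Prtn3 0.76 and 0.43, and with Ms4a3 0.65 and 0.49.

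**Figure D2:**
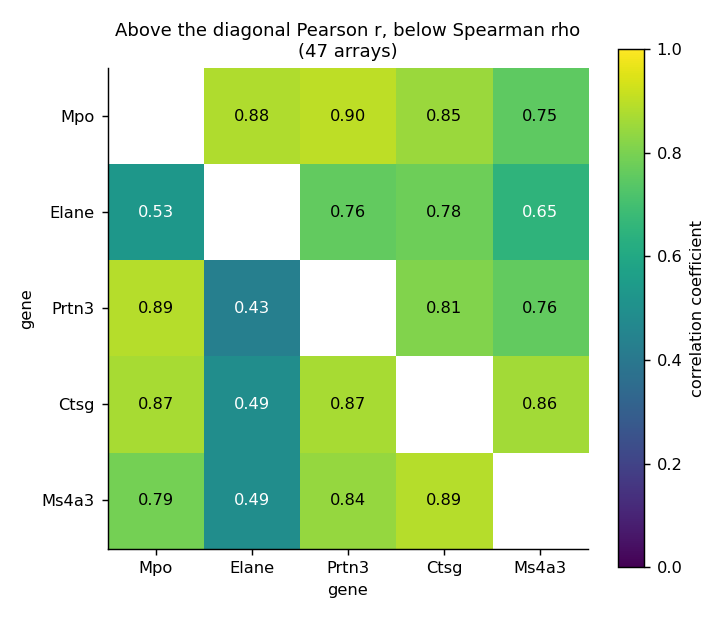
Pearson's r (above the diagonal) and Spearman's rho (below) of each pair of genes over 47 arrays, as numbers and colour from 0 to 1. The row and column of Elane hold the lowest rho, 0.43 to 0.53, while the other 6 pairs lie between 0.79 and 0.89.

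How much of these correlations the high arrays carried differed by pair and by the arrays left out. When the 2 arrays most distant from the median of a pair's first gene were left out, r lay between 0.62 and 0.83 with a median of 0.65, and all 10 pairs passed. Among the 39 arrays with no member above log2 7, chosen after seeing the data, the 6 pairs without Elane kept r between 0.53 and 0.93. Mpo and Prtn3 gave 0.93, Mpo and Ctsg 0.87, and Prtn3 and Ctsg 0.84, against 0.90, 0.85 and 0.81 over 47 arrays. Ms4a3 gave 0.53 with Mpo, 0.63 with Prtn3 and 0.67 with Ctsg, against 0.75, 0.76 and 0.86. The 4 pairs with Elane fell to between 0.25 and 0.51, and Elane with Ms4a3 no longer passed (r 0.25, adjusted permutation p = 0.116). Without E16, the array high for Prtn3 only, Mpo and Prtn3 gave r 0.96 and Elane and Prtn3 0.85. Within labelled groups the median r was 0.85 in line 6070, 0.68 in line 6113, 0.76 with the Erg label and 0.84 without it. All 10 pairs passed in each.

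**Figure D3:**
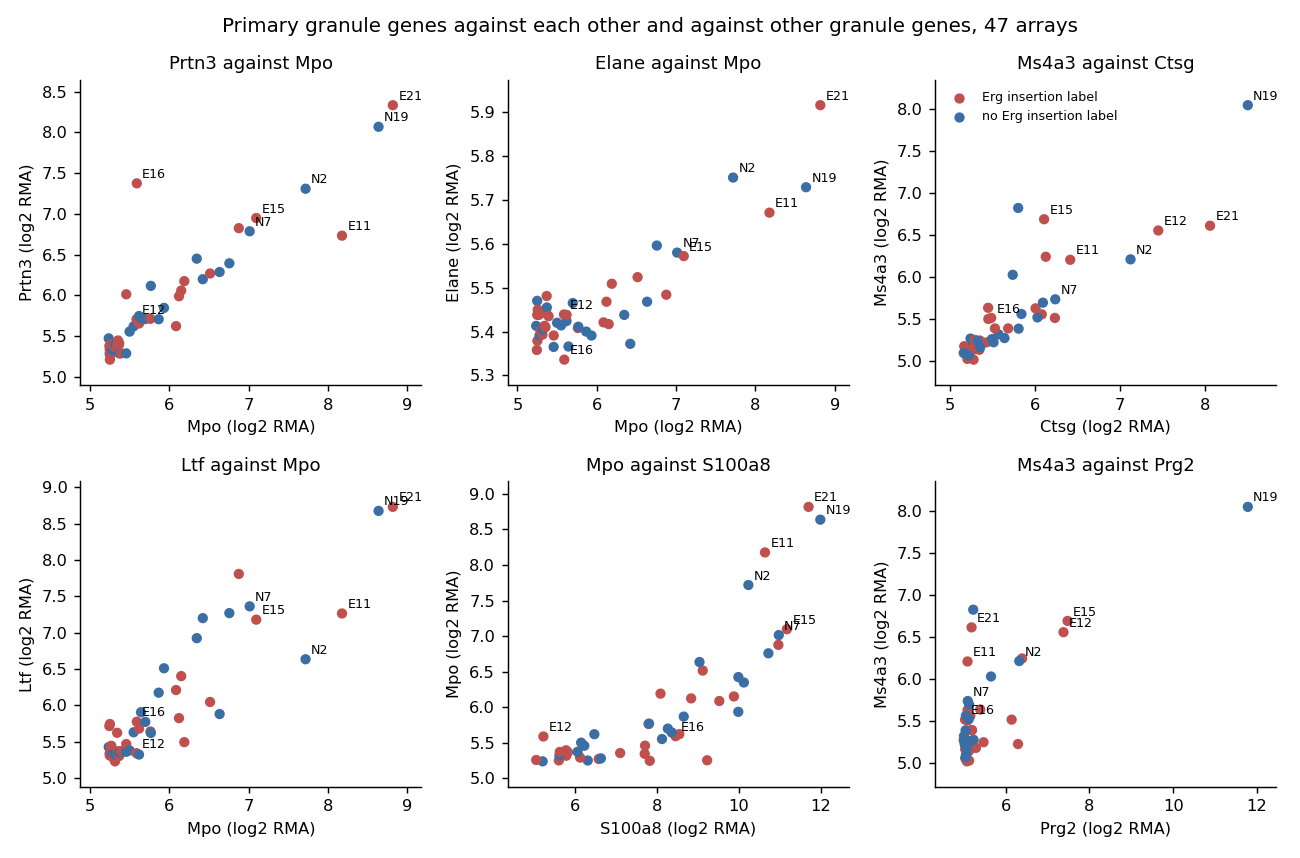
Log2 RMA levels of 6 gene pairs over 47 arrays (red, Erg insertion label, blue, no such label; arrays with a member above log2 7 are named). Mpo rises with Prtn3 apart from E16 and with Ltf, Mpo stays low in arrays of middling S100a8, and Ms4a3 is high in some arrays with Prg2 near its floor.

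Genes across the array were then set against each member with limma. With a positive slope on Mpo, 875 genes passed, 4.81% of those tested, and 1537 passed with a negative slope (8.46%). For Elane these were 77 (0.424%) and 2 (0.011%), for Prtn3 932 (5.13%) and 1650 (9.08%), for Ctsg 536 (2.95%) and 734 (4.04%), and for Ms4a3 667 (3.67%) and 893 (4.91%). The 5 fits share their arrays and are set side by side only. All of these counts leaned on N19. Without it the calls in both directions together went from 2412 to 790 for Mpo, 79 to 44 for Elane, 2582 to 1114 for Prtn3, 1270 to 48 for Ctsg and 1560 to 63 for Ms4a3. Other arrays moved some of them: without E21 Elane had 521 calls and Ctsg 2135, without N2 Elane had 298, and without E12 Ctsg had 2131. With the 3′ to 5′ control difference as a covariate, 2221 calls were made for Mpo, 2796 for Prtn3, 253 for Ctsg and 517 for Ms4a3. Positive calls alone, the background for the lists below, follow for Mpo, Elane, Prtn3, Ctsg and Ms4a3, of 18177 genes tested. They were 368, 44, 533, 47 and 60 without N19, and 538, 1, 753, 949 and 542 with ranks in place of levels. In the 39 arrays with no member above log2 7 they were 238, 0, 158, 387 and 39.

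Secondary granule and mature neutrophil genes gave the largest share of calls of the 14 lists with every member. Positive shares over all tested genes were 4.81% for Mpo, 0.424% for Elane, 5.13% for Prtn3, 2.95% for Ctsg and 3.67% for Ms4a3. Of 17 tested in the list, 16 passed with a positive slope on Mpo, 11 on Elane, 17 on Prtn3, 15 on Ctsg and 16 on Ms4a3, none with a negative one. Their median r was 0.80, 0.60, 0.79, 0.68 and 0.66 in that order, against medians of -0.002 to 0.014 over all tested genes apart from -0.023 for Prtn3. Without N19, 16, 9, 17, 11 and 9 passed. With ranks in place of levels these were 16, 0, 17, 17 and 16, and in the 39 arrays with no member above log2 7 they were 12, 0, 13, 14 and 3. Camp gave r 0.91 with Mpo, Ltf 0.91 and Ngp 0.89, and Cxcr2, the chemokine receptor of mature neutrophils, was the member of the list with the largest p for Mpo (r 0.37, adjusted p = 0.0699 by limma). S100a8, S100a9, Ltf, Camp, Ngp, Lcn2 (an iron-scavenging lipocalin), Mmp9 (gelatinase), Chil3, Fcnb, Pglyrp1 and Hp passed with all 5 members. Among them, Mmp9 spanned 5.15 to 5.93 and Fcnb 5.14 to 5.73 only. Outside this list, Cebpd, a C/EBP factor of later granulocytes, was the listed gene that also passed with all 5. It gave r of 0.68 for Mpo and 0.53 for Ms4a3, on a probe set that spanned 5.36 to 6.29. Without N19, Ltf, Ngp, Lcn2, Chil3, Pglyrp1 and Hp still passed with all 5. The calls lost were those of Cebpd with Elane, Ctsg and Ms4a3 (adjusted p = 0.182, 0.0793 and 0.136 by limma), S100a8 with Elane and Ms4a3 (0.0868 and 0.110), Mmp9 with Elane (0.207), and S100a9, Camp and Fcnb with Ms4a3 (0.0971, 0.0575 and 0.127).

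The genes most like each member were ranked by r over all tested genes. For Mpo the 10 highest were Trem3 at 0.93, Wfdc21, Camp, Ltf, Prtn3, Ngp, Chil3, Elane, Lcn2 and S100a9 at 0.85. Trem3 itself spanned 5.12 to 6.08 only. Prtn3 was led by Mpo at 0.90, Hp (haptoglobin) at 0.89 and Wfdc21 at 0.89, with Trem3, Lcn2, Ltf, Ifitm6, Ngp, Camp and Mcemp1 after them. Ctsg was led by Ms4a3 at 0.86, Mpo at 0.85, Gstm1 at 0.83 and Pglyrp1 at 0.81, with Prtn3, Wfdc21, Trem3, Pram1, Ifitm6 and Elane after them. For Elane they were Mpo at 0.88 and Trem3 at 0.85, then Prom1 and Lbp at 0.79, and Ctsg, Wfdc21, Prtn3, Fcnb, Ltf and Gstm1. For Ms4a3 the highest were Ctsg at 0.86, Pglyrp1 at 0.85, Pram1 at 0.83, Ccl9 at 0.81, Rab3d, Hp, Hdc (histidine decarboxylase, which makes histamine), Cd300lb, Slc18a2 (a vesicular amine transporter) and Ccr1. At the other end, Rbsn had the lowest r with Mpo (-0.70) and Prtn3 (-0.71). Krt26, which spanned 4.99 to 5.11 only, was lowest with Elane (-0.59), and Nudt21 with Ctsg (-0.63). Lowest with Ms4a3 were the nuclear export and pore genes Xpo1 and Nup153 (both -0.68). These are descriptions over 47 arrays of genes picked for their rank.

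Genes that act on or pack the granule proteins gave positive calls only. Of 7 tested, 3 passed with Mpo, 0 with Elane, 3 with Prtn3, 3 with Ctsg and 4 with Ms4a3. Over all tested genes the positive shares were 4.81%, 0.424%, 5.13%, 2.95% and 3.67%. Without N19 the list counts were 1, 0, 2, 0 and 0. Slpi, a secreted elastase inhibitor, gave r 0.54 with Mpo (adjusted p = 0.00312 by limma, 0.0412 without N19). Serpinb1a, an intracellular inhibitor of these proteases, gave 0.49, and Calr, a chaperone of Mpo folding, gave 0.48, and neither passed without N19 (adjusted p = 0.0900 and 0.295). Srgn, the proteoglycan that packs granule proteins, gave r -0.10 and stood between 9.38 and 11.04 in every array. Ctsc, the dipeptidase that activates the proteases, gave r 0.24 with Mpo and did not pass (adjusted p = 0.293; named after its values were seen).

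Transcription factors of granulocytes were tested in the same fits. Positive shares over all tested genes were 4.81% for Mpo, 0.424% for Elane, 5.13% for Prtn3, 2.95% for Ctsg and 3.67% for Ms4a3. Of 17 factors, 4 passed with Mpo, 1 with Elane, 5 with Prtn3, 3 with Ctsg and 4 with Ms4a3. Without N19, 1, 0, 3, 1 and 1 of them passed. Their median r was 0.00 for Mpo. Cebpa, which opens the granulocyte programme, gave r 0.50 with Mpo (adjusted p = 0.00706, 0.0589 without N19) and 0.64 with Ms4a3 (0.000232, and 0.00736 without N19), on a probe set that spanned 5.18 to 5.80. Spi1, the gene of PU.1, gave 0.54 with Mpo and spanned 5.16 to 6.30, and its call was lost without N19 (adjusted p = 0.0838).

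Receptors of myeloid growth factors gave 6, 0, 5, 4 and 3 positive calls of 10 for Mpo, Elane, Prtn3, Ctsg and Ms4a3. Over all tested genes the positive shares were 4.81%, 0.424%, 5.13%, 2.95% and 3.67%. Without N19 the receptor counts were 4, 0, 3, 0 and 0. Csf2ra, a GM-CSF receptor subunit, gave r 0.63 with Mpo, Il6ra 0.53 and Il3ra 0.52. These probe sets spanned only 5.18 to 5.70, 5.16 to 6.15 and 5.17 to 6.04. Of the 3, Il3ra lost its call without N19 (adjusted p = 0.166 by limma). Kit gave 0.07. Csf3r, the G-CSF receptor, gave -0.28 with Mpo and did not pass (adjusted p = 0.191; named after its values were seen). Its level was above log2 7 in 13 arrays, none of which had Mpo above 7.

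Monocyte and macrophage genes gave calls mostly with Mpo and Prtn3 by level, and with Ctsg too by rank. Of 18 tested, 7 passed with Mpo, 0 with Elane, 7 with Prtn3, 1 with Ctsg and 0 with Ms4a3. Over all tested genes the positive shares, which also serve the platelet list below, were 4.81%, 0.424%, 5.13%, 2.95% and 3.67%. Without N19 the monocyte and macrophage counts were 3, 0, 6, 0 and 0. With ranks these were 5, 0, 6, 7 and 1, and in the 39 arrays with no member above log2 7 they were 3, 0, 1, 2 and 0. Csf1r gave r 0.46 with Mpo (adjusted p = 0.0148 by limma, 0.0317 without N19), Klf4 0.48 and Adgre1 (F4/80) 0.54, of which Adgre1 lost its call without N19 (adjusted p = 0.0608). Klf4 spanned 5.25 to 6.15 only. Platelet genes gave 4, 0, 5, 2 and 3 of 10, with Ppbp at r 0.57 and Gp1bb at 0.53 with Mpo, and 4, 0, 5, 0 and 0 without N19. With ranks the platelet counts were 4, 0, 6, 5 and 5, and in the 39 arrays they were 4, 0, 4, 4 and 0.

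Lymphoid, erythroid and stem cell lists gave small counts, which were not tested against the shares over all tested genes. With a positive slope those shares were 4.81% for Mpo, 0.424% for Elane, 5.13% for Prtn3, 2.95% for Ctsg and 3.67% for Ms4a3. With a negative slope they were 8.46%, 0.011%, 9.08%, 4.04% and 4.91%. None of 13 B cell genes passed with any member, although N19, N2, N7 and E16 had high Vpreb1. Of 12 T and NK genes, 1 passed with Mpo (Ncr1, r 0.42, range 5.02 to 5.32). Of 14 erythroid genes none passed with a positive slope, and 3 passed with a negative slope on Prtn3, among them Klf1 and Car1, against 1 without N19. Of 14 stem and progenitor genes, 2 passed with Prtn3 and 1 with Ms4a3, Cd34 in both cases among them (adjusted p = 0.00227 and 0.0219 by limma), against 3 and 0 without N19, when Spn also passed with a negative slope on Prtn3 (adjusted p = 0.0315). Granule genes of killer lymphocytes, a list of granzymes with Prf1 (perforin) and the membrane protein Nkg7, gave 0, 0, 0, 1 and 2 of 7. The call with Ctsg was Nkg7, those with Ms4a3 were Nkg7 and the granzyme Gzmb, and without N19 only that of Nkg7 with Ms4a3 was made (adjusted p = 0.0317 by limma). Of 12 stromal genes, 1, 0, 2, 0 and 1 passed, and 1, 0, 1, 0 and 0 without N19. Of 14 cell cycle genes, 1 had a positive slope, on Mpo (Rrm2), and 1, 0, 1, 1 and 3 had a negative one, and none passed in either direction without N19.

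**Figure D4:**
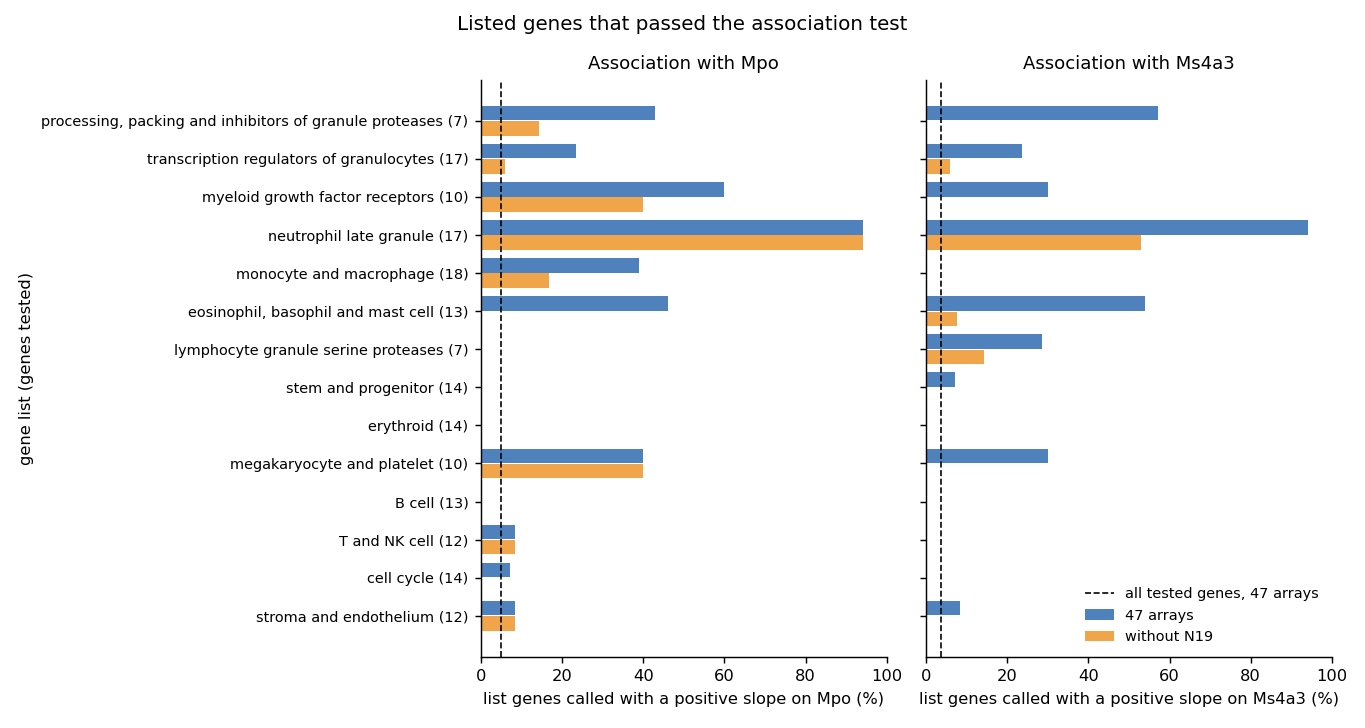
Share of each gene list (with the number of genes tested) that passed with a positive slope on Mpo (left) and on Ms4a3 (right), in percent, over 47 arrays (blue) and without N19 (orange); the dashed line is the share over all tested genes, 4.81% and 3.67%. The late granule list keeps 16 of 17 for Mpo without N19, and goes from 16 to 9 for Ms4a3.

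Some genes of eosinophils, basophils and mast cells had positive slopes on members other than Elane. Of 13 tested, 6 passed with Mpo, 0 with Elane, 3 with Prtn3, 7 with Ctsg and 7 with Ms4a3. Over all tested genes the positive shares were 4.81%, 0.424%, 5.13%, 2.95% and 3.67%. Without N19 the list counts were 0, 0, 0, 2 and 1. With ranks they were 0, 0, 0, 4 and 3, with 1 negative call for Prtn3, and in the 39 arrays with no member above log2 7 they were 0, 0, 0, 1 and 0. Prg2 gave r 0.77 with Ms4a3 and 0.48 with Mpo, Epx 0.67 and 0.48, and Prg3 0.67 and 0.47. Prg2 was above log2 7 in 3 arrays, N19, E15 and E12, which ranked 1, 3 and 5 for Ms4a3, and Epx in N19 alone. With both Mpo and Ms4a3 in the fit, 101 genes passed with a positive slope on Ms4a3 (0.556% of those tested), among them 6 of the 13, while 0 of the 13 passed on Mpo. Of the late granule list, 3 of 17 passed on Ms4a3 and 9 of 17 on Mpo, where 159 of 18177 tested genes passed with a positive slope. In the same fit Prg2 had a slope on Ms4a3 of 1.73 ± 0.25 (SE) and Mcpt8 of 1.58 ± 0.28, in log2 units per log2 unit. Without N19, 33 of 18177 tested genes passed with a positive slope on Ms4a3, and the 6 became 2. These were Prg2 with a slope of 0.99 ± 0.19 (adjusted p = 0.00485 by limma) and Ms4a2 with 0.82 ± 0.17 (0.0111). Of the other primary granule genes, Ctsg passed in this fit (0.63 ± 0.11, and 0.57 ± 0.13 without N19), while Elane and Prtn3 did not (-0.01 ± 0.02 and 0.22 ± 0.12).

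Neighbouring genes were looked at because Elane and Prtn3 lie side by side, and Ctsg and Ms4a3 lie in clusters of related genes. Ctsg is next to Mcpt8, which gave r 0.75 and rho 0.64 with it, whereas Gzme on its other side gave -0.03 and never passed 5.94. Ms4a3 is next to Ms4a2, the beta chain of the IgE receptor, with r 0.68 and rho 0.34. Mpo is next to Lpo, lactoperoxidase, with r -0.06 and a highest value of 5.21, and Epx, further along on that side, gave r 0.48 and rho 0.16. Beyond each other, Elane and Prtn3 had neighbours with r between -0.28 and 0.18.

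No label comparison passed the test for any of the 5 genes. No gene of 18178 passed for the Erg label, transposon line, sex label, age or the interaction of Erg and line (0% called in each, limma), and unadjusted p fell under 0.05 for 666, 540, 460, 688 and 1286 genes. Mpo ran from 5.24 through 5.52 to 8.82 in the 26 arrays with the Erg label and from 5.24 through 5.70 to 8.64 in the 21 without, so the groups overlapped over nearly their whole range. The fitted difference, insertion minus none, was -0.20 ± 0.27 (SE) for Mpo, -0.01 ± 0.03 for Elane, -0.09 ± 0.23 for Prtn3, -0.10 ± 0.22 for Ctsg and -0.09 ± 0.18 for Ms4a3. With age as a covariate it was -0.47 ± 0.32 for Mpo and -0.27 ± 0.27 for Prtn3, and without the arrays with Cd3d or Vpreb1 above log2 7 all 5 differences were above 0, with 0.34 ± 0.34 for Mpo. Line 6113 minus line 6070 was -0.22 ± 0.27 for Mpo and between -0.15 and -0.02 for the others. Labelled female minus male was -0.21 ± 0.21 for Ctsg and between -0.19 and -0.01 for the others. Mpo had a slope of 0.016 ± 0.010 per unit of age, with the smallest unadjusted p of the 25 member fits (0.116).

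**Figure D5:**
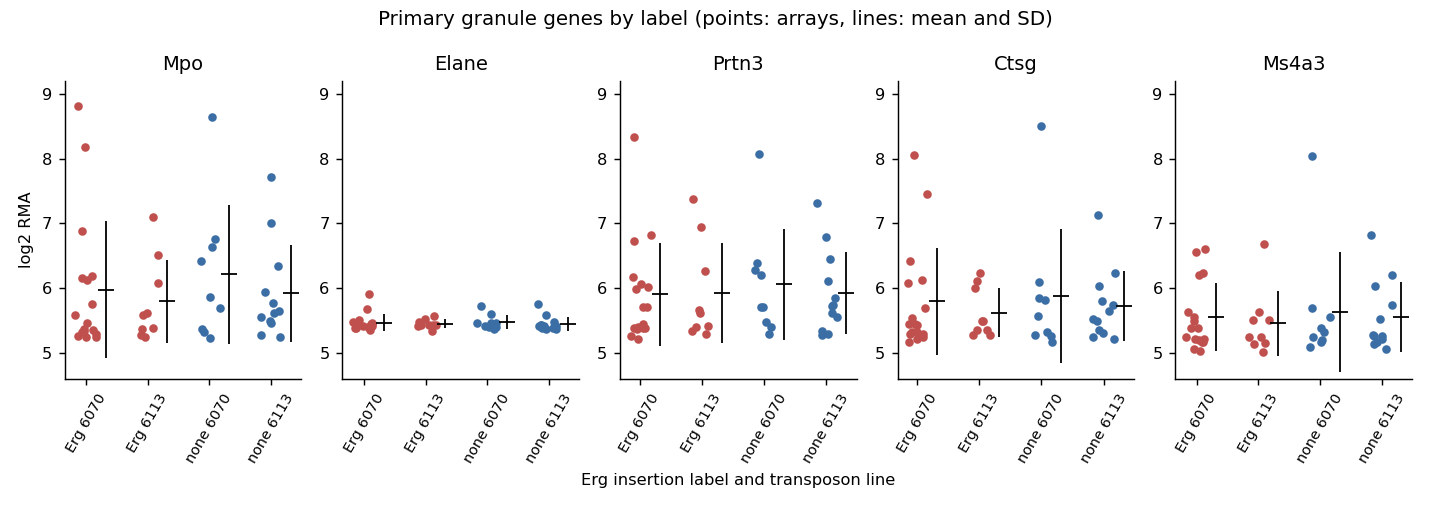
Log2 RMA levels of the 5 genes by Erg insertion label (red, insertion; blue, none) and transposon line, with each array as a point and the mean and SD as a black line (17, 9, 9 and 12 arrays from left to right). Each group holds arrays near the floor and, for Mpo, at least 1 above log2 7, and the groups overlap.

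Measures of the arrays moved with some of the members too. The 3′ to 5′ control difference gave r 0.40 with Mpo (adjusted permutation p = 0.0208, n = 47), 0.34 with Elane, 0.25 with Prtn3, 0.35 with Ctsg and 0.41 with Ms4a3, and rho 0.22, 0.37, 0.09, 0.15 and 0.06. By r all but Prtn3 passed (adjusted permutation p = 0.0802 for Prtn3), and by rho Elane alone did (0.0467). When the 2 arrays with the most extreme control difference were left out, r was 0.16, 0.19, -0.08, 0.03 and 0.00. The first principal component of all other tested genes held 35.8% of their variance. It gave r -0.38 with Mpo, -0.17 with Elane, -0.44 with Prtn3, -0.29 with Ctsg and -0.24 with Ms4a3. Those with Elane, Ctsg and Ms4a3 did not pass (adjusted permutation p = 0.269, 0.0761 and 0.133). By rho the component gave -0.44, 0.04, -0.50, -0.51 and -0.47, and all but Elane passed (adjusted permutation p = 0.00122 for Ctsg and 0.00172 for Ms4a3). After it was removed, the median r of the 10 pairs was 0.78, against 0.79 before. With it in the association fits, the calls were 1157 for Mpo, 414 for Prtn3, 676 for Ctsg and 1458 for Ms4a3.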

How the data were processed

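RNA from 47 leukaemic mouse spleens, 1 array per mouse, had been hybridised to Affymetrix mouse whole-genome arrays after labelling with a 3′ in vitro transcription kit, per the labels' protocols. The authors deposited 1 log2 value per probe set and array, from RMA as run in affy and R 2.15 (per the submitters' processing notes). That method removes background, equalizes the arrays' distributions and combines each probe set's probes, and differences near its floor are compressed. Scanner files were not used here.

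Names came from the platform annotation, and probe sets with a single gene were used (34945 of 45101). Per gene the probe set with the highest mean was kept. A gene was tested when 9 or more arrays exceeded log2 5, so 18178 of 18193 genes entered. Columns were matched to samples by their names in the table.

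The label comparisons were fitted with limma 3.58.1 under R 4.3.3, using lmFit and eBayes. Each comparison among Erg label, line and sex label had the other two labels as covariates, and age and the interaction had all of them. The association fits regressed every other tested gene on the log2 level of 1 member. P-values were adjusted by Benjamini-Hochberg over all tested genes, with a threshold of 0.05. Pairs of members were compared in Python 3.11.15. Pearson's r and Spearman's rho each had a two-sided permutation test (100000 resamples), whose smallest possible p is 1e-05. The limma steps were tried on the same values with the arrays shuffled and a known shift or slope added to some genes. The outcome of that trial is not given here. A level of log2 7 was used to count arrays in which a probe set stood clearly above the floor.

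The members and the 14 gene lists were chosen with earlier results of these data known. Genes could be named that were members, among the 10 highest or 5 lowest by r with a member, the 3 listed genes with the smallest p or the 1 with the largest p for Mpo, called with all 5 members, or neighbours, and the text gives part of these. Genes named to describe single arrays (S100a8, Csf1r, Csf3r, Lyz2, Irf8, Flt3, Kit, Cd34, Gfi1, Cebpa), and any other name outside that rule, were chosen after their values were seen. Promoters come from RefSeq. The RefSeq gene table, of the same build, served for gene order only, since the build of the array annotation is not given in the sources used here.

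The alternatives were other covariates, the number 07, 08 or 09 in the tumour identifier as a block, the first principal component, the difference between 3′ and 5′ control probe sets, other filters, ranks in place of levels, and leaving out arrays. Those chosen after seeing the data left out each array with a member above log2 7, left out all of them, or put Mpo or Ms4a3 in the fit together.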

Additional observations from a re-analysis of the deposited data

Results flagged for a closer look

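Within the groups by Erg label and line that had 9 arrays, 10 sets of values were checked for an array far from the others, and 5 were found. Chance flags about 1 in 20 groups of independent values. These genes moved together and lay at or below log2 7 in most arrays, so that rate does not apply and the flags are not separate findings. Groups of other sizes, among them that of E21, were not checked. N19, a line 6070 spleen without the Erg label, stood apart for Mpo (8.638, the next array 6.757), Prtn3 (8.068, next 6.393), Ctsg (8.501, next 6.095) and Ms4a3 (8.047, next 5.694). The same array had the highest 3′ to 5′ control difference of the series (2.96) and high eosinophil, basophil and pre-B genes. E15, a line 6113 spleen with the Erg label, stood apart for Ms4a3 (6.688, next 5.626), with Prg2 at 7.48 and Epx at 5.83. The part of those measures in these levels was not tested.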

How the results depend on the processing

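No paired analysis was possible because replicate numbers only follow the deposited order and name no shared animal, litter or day. Each member had a single probe set of its own, so the alternative with the next brightest probe set was not run. The association counts moved over 1.5 times in several settings, and the cause was not tested. Leaving out 1 array with a high member gave 790 to 3277 calls for Mpo, 44 to 521 for Elane, 1114 to 3689 for Prtn3, 48 to 2135 for Ctsg and 63 to 1909 for Ms4a3. The first principal component as a covariate gave 1157 for Mpo, 414 for Prtn3 and 676 for Ctsg, and the 3′ to 5′ difference 253 for Ctsg and 517 for Ms4a3. Without the 2 farthest arrays, Elane had 2484, Ctsg 54 and Ms4a3 127. Without arrays with Cd3d or Vpreb1 above log2 7 there were 796 for Mpo, 181 for Elane, 1025 for Prtn3, 58 for Ctsg and 337 for Ms4a3. With ranks there were 1540 for Mpo, 1 for Elane and 2829 for Ctsg, and with genes above a mean of log2 6 Elane had 12. In arrays with no member above log2 7 there were 694 for Mpo, 0 for Elane by limma, 559 for Prtn3 and 41 for Ms4a3. Mpo had 248 calls with Ms4a3 as a covariate, and Ms4a3 had 121 with Mpo as one and 34 when N19 was left out too. The median r of the pairs was 0.58 without the arrays with a high member, with 9 of 10 pairs past the threshold, and 9 or 10 pairs passed in each alternative run. Arrays with a high member were 21 at log2 6 and 3 at log2 8.

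No member passed for a label in any of 165 alternative fits (smallest adjusted p 0.807 by limma). Over all genes, line had 1 call and sex 6 in the arrays whose sex label matched, and age 1 without the arrays high in Cd3d or Vpreb1. Without those arrays the sign turned for the Erg label in Ctsg (0.34), Elane (0.051), Mpo (0.34), Ms4a3 (0.19) and Prtn3 (0.33), for line in Ms4a3 (0.048), for the sex label in Ms4a3 (0.082) and Prtn3 (0.064), for age in Ctsg (-0.0020) and for the interaction in Ctsg (-0.50), Mpo (-0.21), Ms4a3 (-0.51) and Prtn3 (-0.19). In arrays whose sex label matched it turned for the Erg label in Elane (0.011), Mpo (0.14) and Prtn3 (0.22) and for the interaction in Ctsg (-0.75), Elane (-0.12), Mpo (-1.28), Ms4a3 (-0.65) and Prtn3 (-0.58). With the tumour identifier number as a block it turned for line in Ctsg (0.041), Ms4a3 (0.075) and Prtn3 (0.0275) and for the interaction in Ctsg (-0.0235) and Ms4a3 (-0.078). Elane lay within 0.58 log2 units of its lowest value, and 8 arrays held a member above log2 7.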

Other observations

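With Mpo in the fit, the genes with the smallest p for a positive slope on Ms4a3 were Slc18a2 (0.44 ± 0.05 SE), Ccl9, a chemokine of myeloid cells (0.98 ± 0.13), Nkg7, a membrane protein of killer-cell granules (1.14 ± 0.16), and Siglecf, a surface lectin of eosinophils (0.50 ± 0.07), in log2 units per log2 unit over 47 arrays. They were chosen after their values were seen. Without N19 these slopes were 0.36 ± 0.06, 1.04 ± 0.15, 1.10 ± 0.18 and 0.47 ± 0.08, and each passed (adjusted p = 0.000509, 0.00014, 0.000966 and 0.00158 by limma).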
